A study of Mus musculus with 6 samples.

Results

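The genes described here are 59 ligands and receptors of axon guidance: semaphorins, ephrins, netrins and Slits on the ligand side (33 genes), and plexins, neuropilins, Eph receptors, Robos and the netrin receptors Unc5b, Unc5c and Dcc on the receptor side (26 genes). They were found by matching the RefSeq accession of each array probe to a mouse gene symbol and keeping the symbols of these families, out of 18217 genes that the array's probes could be matched to. Of the 59 genes, 57 had a probe and 46 were bright enough to test (28 ligands and 18 receptors). The study measured RNA of newborn mouse epidermis (postnatal day 0) with 6 Agilent 1-colour arrays, 1 mouse per array. The 3 AhRCA mice expressed a form of AhR, the aryl hydrocarbon receptor, that is active without a ligand; AhR is a transcription factor switched on by dioxins and other foreign chemicals. The transgene was driven by the keratin 14 promoter, which is active in basal keratinocytes. The 3 wild-type (WT) mice were their littermates, each sampling giving 1 mouse of either genotype, and all 6 were of a mixed strain. The labels name no treatment.

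Guidance ligands were first described as cues that attract or repel growing axons. Class 3 semaphorins are secreted and act through plexins, most of them with a neuropilin as co-receptor, whereas other semaphorins are membrane-bound. Ephrins sit on the cell surface and signal through Eph receptor tyrosine kinases on the neighbouring cell, and can themselves signal back, so that they sort cells and set tissue boundaries in epithelia as well as nerves. Netrins act through Dcc and the Unc5 receptors, and Slits through Robos. In skin, keratinocytes make several of these ligands and thereby influence how far sensory fibres grow into the epidermis.

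In AhRCA epidermis the Eph receptor gene Ephb2 rose 2.26-fold, while its relative Ephb1 fell 3.47-fold and the secreted semaphorin gene Sema3e fell 1.92-fold. The size of the Ephb1 fall depended on the background correction: its log2 fold change was -1.79, and -0.94 with normexp correction of the median signals. These were the 3 of 46 tested genes (6.52%) to pass an adjusted p of 0.05 (limma, Benjamini-Hochberg over 12824 genes); among all tested genes 2.18% passed, 0.53% of them higher and 1.65% lower in AhRCA. Sema3b, another secreted semaphorin gene, was 1.99-fold lower and missed the threshold (adjusted p = 0.0519). When littermates were treated as pairs it passed, as did the Slit gene Slit3, which gave 1 rise and 4 falls (5 of 46, 10.9%, against 3.88% of all tested genes, of which 1.07% were higher and 2.81% lower). With the slide as a block 5 passed too (4.2% of all tested genes), and on slide 1 alone 1, Ephb2 (1.01% of all tested genes). The plexin genes, the ephrin genes and the remaining Eph receptor genes had log2 fold changes between -0.47 and 0.34, and none of them passed.

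AhR binds DNA at the core motif GCGTG, so the stretches before the start of the 3 genes that passed are shown with that of Cyp1a1, the best known AhR target. They are the 250 bases before the gene start from RefSeq (GRCm38.p6), 5′ to 3′ in the direction of the gene, with GCGTG on either strand in capitals (CACGC where it lies on the other strand). The Ephb2 stretch lies at chr4:136836013-136836262 on the minus strand, that of Ephb1 at chr9:102354694-102354943 on the minus strand, that of Sema3e at chr5:14025026-14025275 on the plus strand and that of Cyp1a1 at chr9:57697363-57697612 on the plus strand.
Ephb2: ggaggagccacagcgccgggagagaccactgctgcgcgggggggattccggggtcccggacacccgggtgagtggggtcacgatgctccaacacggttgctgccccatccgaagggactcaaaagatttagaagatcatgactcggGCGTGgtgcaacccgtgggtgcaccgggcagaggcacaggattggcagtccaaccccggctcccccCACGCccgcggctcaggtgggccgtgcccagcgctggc
Ephb1: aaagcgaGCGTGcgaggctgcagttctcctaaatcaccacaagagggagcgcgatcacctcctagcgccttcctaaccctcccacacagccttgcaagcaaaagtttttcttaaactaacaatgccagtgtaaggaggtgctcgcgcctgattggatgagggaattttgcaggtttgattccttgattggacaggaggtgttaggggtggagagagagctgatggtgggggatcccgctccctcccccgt
Sema3e: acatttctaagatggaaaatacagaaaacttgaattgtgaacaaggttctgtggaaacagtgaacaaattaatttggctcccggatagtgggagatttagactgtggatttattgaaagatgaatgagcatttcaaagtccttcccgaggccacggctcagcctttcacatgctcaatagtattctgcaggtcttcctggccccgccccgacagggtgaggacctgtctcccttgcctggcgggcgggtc
Cyp1a1: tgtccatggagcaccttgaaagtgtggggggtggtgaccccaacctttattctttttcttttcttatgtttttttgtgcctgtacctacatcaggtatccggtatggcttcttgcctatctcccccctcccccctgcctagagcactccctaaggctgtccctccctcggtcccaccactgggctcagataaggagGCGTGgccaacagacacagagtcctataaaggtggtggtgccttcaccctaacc
Ephb2 held 2 matches, whose first bases lie 104 and 38 bases before the start, Ephb1 held 1 match 243 bases before it and Cyp1a1 held 1 match 54 bases before it. In Sema3e these letters were not found in the window. Over the longer window of 250 bases before to 50 after the start, GCGTG was present in 45.1% of 51 promoters of tested guidance genes. It was present in 32.4% of 32851 mouse promoters, and the stricter TNGCGTG in 5.88% of the guidance promoters and 5.07% of all. Each start of a gene was counted, so the 51 promoters belong to 40 genes and the 32851 to 27025. Over the 67 promoters of all guidance genes with a sequence, tested or not, the shares were 40.3% for the core and 4.48% for the stricter motif (N is any base, both strands were counted, and each match of the longer motif is also one of the shorter). The longer motif was not found in the windows of the 4 genes shown. A match is a description of these letters only. Sequence farther than 250 bases before the start was not searched. Neither a match nor its absence, in Cyp1a1 or in the 3 genes that passed, shows where AhR binds. The mouse promoters set beside them were neither limited to tested genes nor matched for base composition, and enrichment was not tested. Of the 59 genes 51 had a promoter sequence in the RefSeq table, and these 51 genes hold the 67 promoters.

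The arrays were of similar quality. Spots well above background made up 56.2% to 61.3% of each array and 0 were saturated; the number of arrays, 3 per genotype, limits the precision. Slide 1 held litter pairs 1 and 2 and slide 2 held pair 3, so that slide and the third litter pair cannot be told apart. The AhR targets separated the genotypes as labelled. Cyp1a1 stood at 3.32, 3.68 and 5.04 in AhRCA 1 to 3 and at -3.96, -3.03 and -2.18 in WT 1 to 3 (log2 intensity minus the array's 75th percentile, the scale of all levels below), Cyp1b1 had a log2 fold change of 5.34 ± 0.14 (SE, adjusted p = 5.62e-05) and Ahrr one of 5.91 ± 0.35 (adjusted p = 0.00164, limma). All 8 keratinocyte markers were measured, with log2 fold changes between -0.05 and 0.05 and a summed intensity, relative to the 75th percentile, of 1550 to 1840 in AhRCA and 1660 to 1770 in WT.

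Other cell types of skin can be read from marker genes, and some of them moved with the genotype. Of 7 Merkel cell markers 4 were tested and 3 fell, with a summed relative intensity of 0.408 to 0.618 in AhRCA and 1.38 to 2.19 in WT. Among the 3, Piezo2 was well above background on 0 AhRCA and 3 WT arrays, so it was kept through the WT arrays alone. Its adjusted p by limma was 0.0474, and 0.0672 with littermates as a block, where 2 of the 4 passed. Atoh1 and Sox2 were not well above background on any of the 6 arrays. Of 10 hair follicle markers 2, Lgr5 and Krt75, fell. The 10 summed to 95.5 to 149 in AhRCA and 194 to 344 in WT, and Krt71, the brightest, weighs most in this sum. By limma Krt71 (-1.24, adjusted p = 0.135) and Krt35 (-0.86, 0.264) did not pass. Lhx2, Sox9, Shh, Msx2 and Lgr6 had log2 fold changes between -0.20 and 0.16. Of 7 sebaceous gland markers 6 fell (6.53 to 7.06 in AhRCA, 18.8 to 25.9 in WT). Of these, Fa2h was well above background on 0 AhRCA and 3 WT arrays. Of 8 Langerhans and T cell markers 7 were tested and 1, Cd207, fell. It was well above background on 0 AhRCA and 3 WT arrays. At an unadjusted p under 0.05 by limma stood 4, of which 3 were lower and 1, Ptprc, was higher (0.40). The 7 summed to 6.69 to 7.95 in AhRCA and 8.31 to 10.8 in WT, and Epcam weighs most in this sum. Of 8 Schwann cell and nerve markers 6 were tested and 0 passed by limma, with 0 at an unadjusted p under 0.05 (10.5 to 10.9 in AhRCA, 10.4 to 11.7 in WT). Of 8 endothelial markers 6, among them Pecam1, Cdh5 and Kdr, were not well above background on any array, and the other 2 did not pass (0.597 to 0.868 in AhRCA, 0.551 to 0.877 in WT). Fibroblast markers, 5 of 8 tested, had 0 calls and 1 at an unadjusted p under 0.05 (19.2 to 19.4 in AhRCA, 18.2 to 25.5 in WT). Of 7 melanocyte markers 4, of 5 adipocyte markers 2 and of 6 skeletal muscle markers 1 were tested, and 0 of each passed, with 1, an adipocyte marker, at an unadjusted p under 0.05; summed relative intensities were 67.5 to 81 in AhRCA and 59.4 to 86.3 in WT for melanocytes, 0.702 to 1.79 in AhRCA and 1.37 to 2.49 in WT for adipocytes, and 0.0536 to 0.125 in AhRCA and 0.0855 to 0.125 in WT for muscle. The part of hair follicle, sebaceous and Merkel cells in the falls given below was not tested. In bulk epidermis fewer cells of a type and less RNA per cell cannot be told apart.

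Among the receptors, the B class Eph receptors held both calls, in opposite directions. Ephb2, a tyrosine kinase receptor for B class ephrins, stood at -0.33, -0.40 and -0.68 in AhRCA 1 to 3, against -1.48, -1.62 and -1.84 in WT 1 to 3. Every AhRCA array was higher than every WT array, and the difference was nearly the same in each litter pair (1.15, 1.23 and 1.16). The log2 fold change was 1.18 ± 0.15 (SE, 95% interval 0.82 to 1.54, adjusted p = 0.0165). A further Ephb2 probe differed by 1.08, with means of -4.04 in AhRCA and -5.12 in WT, and was well above background on 3 AhRCA arrays and 1 WT array. Ephb2 kept its call on slide 1 alone (adjusted p = 0.0396), and lost it without AhRCA replicate 1 (0.0702), AhRCA replicate 2 (0.0861) or WT replicate 2 (0.0758).

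Ephb1, which also binds B class ephrins, stood at -4.18, -3.83 and -3.52 in AhRCA 1 to 3, against -2.42, -1.77 and -1.96 in WT 1 to 3. The groups did not overlap, and the lowest WT array was more than 1 log2 unit above the highest AhRCA array. The log2 fold change was -1.79 ± 0.23 (SE, 95% interval -2.34 to -1.24, adjusted p = 0.0167), with differences of -1.76, -2.06 and -1.56 in the 3 litter pairs. Its single probe was well above background on all 6 arrays. With normexp background correction the log2 fold change was -0.94, outside that interval, and still passed (adjusted p = 0.0158). The value was -1.91 on slide 1 alone, where it missed the threshold (adjusted p = 0.0781). The call was also lost without AhRCA replicate 1 (0.0536), AhRCA replicate 2 (0.0853), WT replicate 2 (0.0674) or WT replicate 3 (0.0554).

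The other 3 B class receptors did not pass. Ephb3, Ephb4 and the kinase-inactive Ephb6 had log2 fold changes of -0.13 (95% interval -0.55 to 0.29), 0.08 (-0.52 to 0.69) and -0.11 (-0.38 to 0.16). Of the A class, Epha4, which binds ephrins of both classes, stood at 2.41, 2.16 and 2.43 in AhRCA 1 to 3, against 1.98, 2.12 and 1.87 in WT 1 to 3. The groups did not overlap but came within 0.04 of each other in pair 2, and the log2 fold change of 0.34 ± 0.13 (SE) did not pass (unadjusted p = 0.0336, adjusted p = 0.334). Its other usable probe differed by 0.08, with means of 0.93 in AhRCA and 0.85 in WT, and the mean of both probes by 0.21. Epha2 and Epha1, epithelial members of the class, had 0.25 ± 0.14 (adjusted p = 0.645) and -0.01 ± 0.10 (adjusted p = 0.999). Epha3, Epha5 and Epha7 were not tested. Epha7 exceeded background clearly on 0 of 3 AhRCA arrays and 2 of 3 WT arrays, at -5.48, -5.59 and -5.47 in AhRCA 1 to 3 and -4.30, -4.01 and -5.02 in WT 1 to 3.

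**Figure D1:**
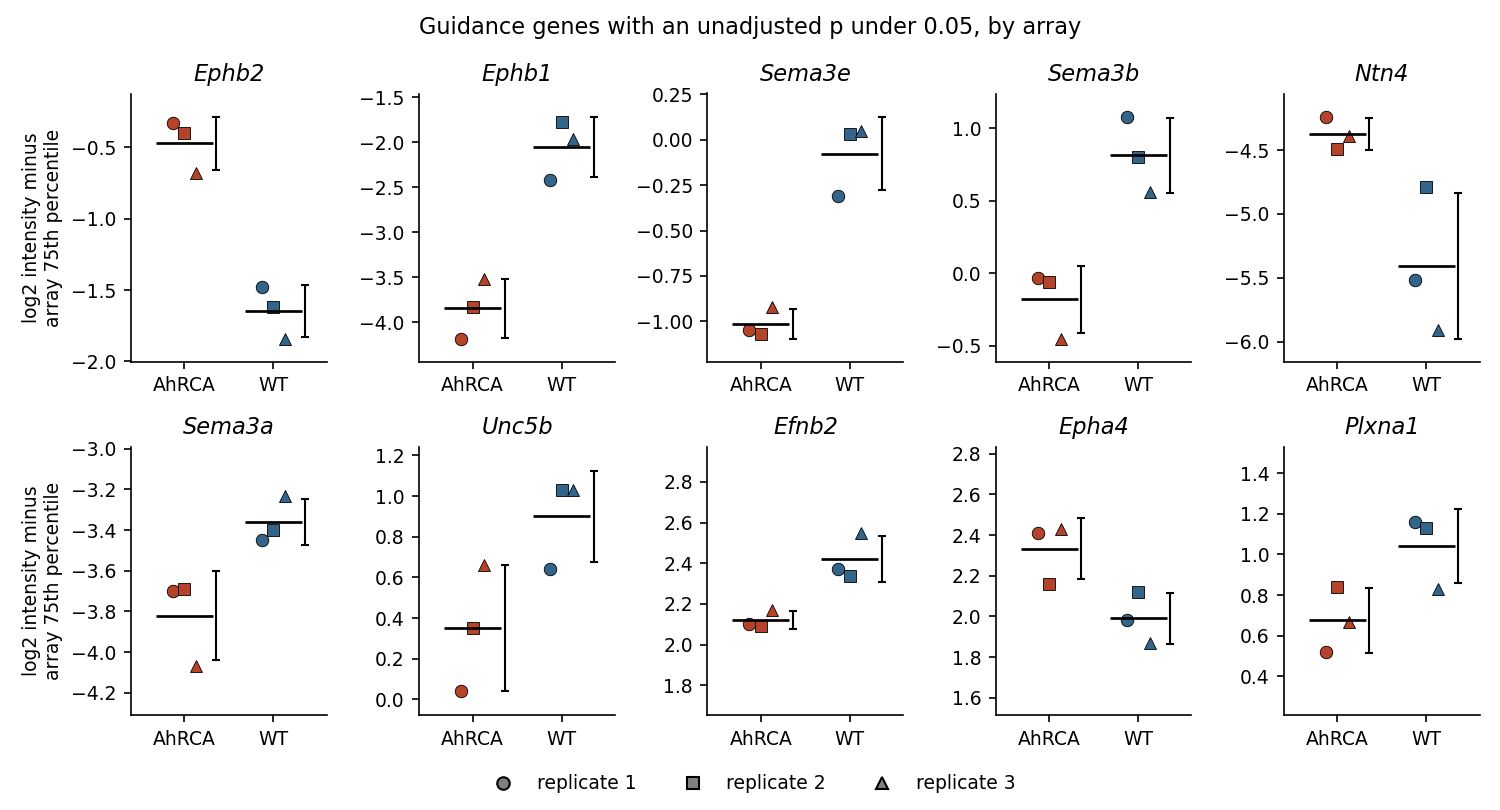
Level of the 10 guidance genes with an unadjusted p under 0.05 (limma), as log2 intensity minus the array's 75th percentile, with AhRCA at left and WT at right in each panel; symbols mark replicates 1 to 3, horizontal lines the group means and bars ± 1 SD (n = 3). The panels have their own axis ranges, and the groups are apart in Ephb2, Ephb1, Sema3e and Sema3b by more than the spread within either group.

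None of the tested ephrin genes, which encode the ligands of these receptors, passed by limma, and Efnb2 alone stood at an unadjusted p under 0.05. Efnb2, the ephrin that pairs with Ephb4 and also binds Ephb1 and Ephb2, stood at 2.10, 2.09 and 2.17 in AhRCA 1 to 3, against 2.37, 2.34 and 2.55 in WT 1 to 3. The groups did not overlap, but the log2 fold change of -0.30 ± 0.11 (SE) missed the threshold (unadjusted p = 0.0293, adjusted p = 0.313), and a dimmer Efnb2 probe differed by -0.11. Efnb1 had 0.19 ± 0.19 (adjusted p = 0.94) and Efnb3 -0.47 ± 0.29 (adjusted p = 0.695). Efnb3 stood at -2.10, -2.54 and -2.62 in AhRCA 1 to 3 and at -2.02, -1.39 and -2.44 in WT 1 to 3, and pair 2 alone differed by more than 1 log2 unit (-1.16). The 4 tested A class ephrins lay between -0.05 and 0.18, and Efna2 had the largest value (0.18 ± 0.14, adjusted p = 0.847). Efna1 and its receptor Epha2 had 0.02 (95% interval -0.38 to 0.43) and 0.25 (-0.09 to 0.58).

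The secreted class 3 semaphorins held the ligand call made without a block. Sema3e, which signals through Plxnd1 and can do so without a neuropilin, stood at -1.05, -1.07 and -0.92 in AhRCA 1 to 3, against -0.31, 0.03 and 0.05 in WT 1 to 3. All AhRCA arrays were below all WT arrays, and its other usable probe had means of -1.37 in AhRCA and -0.45 in WT. A further Sema3e probe was too dim to use, being well above background on 0 AhRCA and 2 WT arrays, and differed by -1.57. The log2 fold change was -0.94 ± 0.14 (SE, 95% interval -1.26 to -0.62, adjusted p = 0.0248), and -0.74, -1.10 and -0.98 in the 3 litter pairs. It was -0.92 on slide 1 (adjusted p = 0.0882). The call was lost without AhRCA replicate 1 (0.102), AhRCA replicate 2 (0.116), AhRCA replicate 3 (0.0621), WT replicate 2 (0.115) or WT replicate 3 (0.0605), and when dim probes were not filtered out (0.0638). Its receptor Plxnd1 had -0.13 ± 0.12 (95% interval -0.41 to 0.15, adjusted p = 0.893).

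Sema3b, a repellent that acts through neuropilins and A class plexins, stood at -0.03, -0.06 and -0.45 in AhRCA 1 to 3, against 1.08, 0.80 and 0.56 in WT 1 to 3. The AhRCA mouse was the lower one in each litter pair, with differences of -1.11, -0.86 and -1.01, and the groups did not overlap. The log2 fold change of -0.99 ± 0.18 (SE, 95% interval -1.43 to -0.56) had an adjusted p of 0.0519 without a block, 0.0157 with the litter pair and 0.011 with the slide as a block, and 0.0692 on slide 1. Sema3a, the ligand known for keeping sensory fibres out of the epidermis, stood at -3.70, -3.69 and -4.07 in AhRCA 1 to 3, against -3.45, -3.40 and -3.23 in WT 1 to 3. The groups did not overlap, its 2 probes had differences of -0.46 and -0.60, and the log2 fold change of -0.46 ± 0.14 (SE, 95% interval -0.80 to -0.11) did not pass (unadjusted p = 0.0171, adjusted p = 0.227). It was -0.22 with normexp background correction and -0.27 on slide 1. Its co-receptor gene Nrp1 exceeded background clearly on 0 AhRCA arrays and 1 WT array and was not tested, whereas Nrp2 was measured on all 6 and had 0.02 ± 0.15 (adjusted p = 0.999).

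Of the remaining class 3 genes, Sema3c, Sema3d and Sema3f had log2 fold changes of 0.27, -0.03 and -0.06, with 95% intervals inside ± 1. The 11 tested membrane-bound semaphorins lay between -0.46 and 0.18 and none passed by limma, with 0 at an unadjusted p under 0.05. Sema7a, a lipid-anchored semaphorin, had the largest of these values (-0.46 ± 0.24, adjusted p = 0.585), at 0.56, 0.61 and 1.08 in AhRCA 1 to 3 and 0.77, 1.32 and 1.54 in WT 1 to 3, and its receptor Plxnc1 had 0.14 ± 0.18 (adjusted p = 0.981). Sema4d and its receptor Plxnb1 had 0.12 (95% interval -0.31 to 0.54) and -0.22 (-0.62 to 0.17). The 7 tested plexins lay between -0.36 and 0.14. Plxna1, a signalling partner of class 3 semaphorins, was the lowest, at 0.52, 0.84 and 0.67 in AhRCA 1 to 3 against 1.16, 1.13 and 0.83 in WT 1 to 3. The groups overlapped, and the value of -0.36 ± 0.14 did not pass (unadjusted p = 0.0412, adjusted p = 0.373). A second, dimmer Plxna1 probe differed by -0.07.

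**Figure D2:**
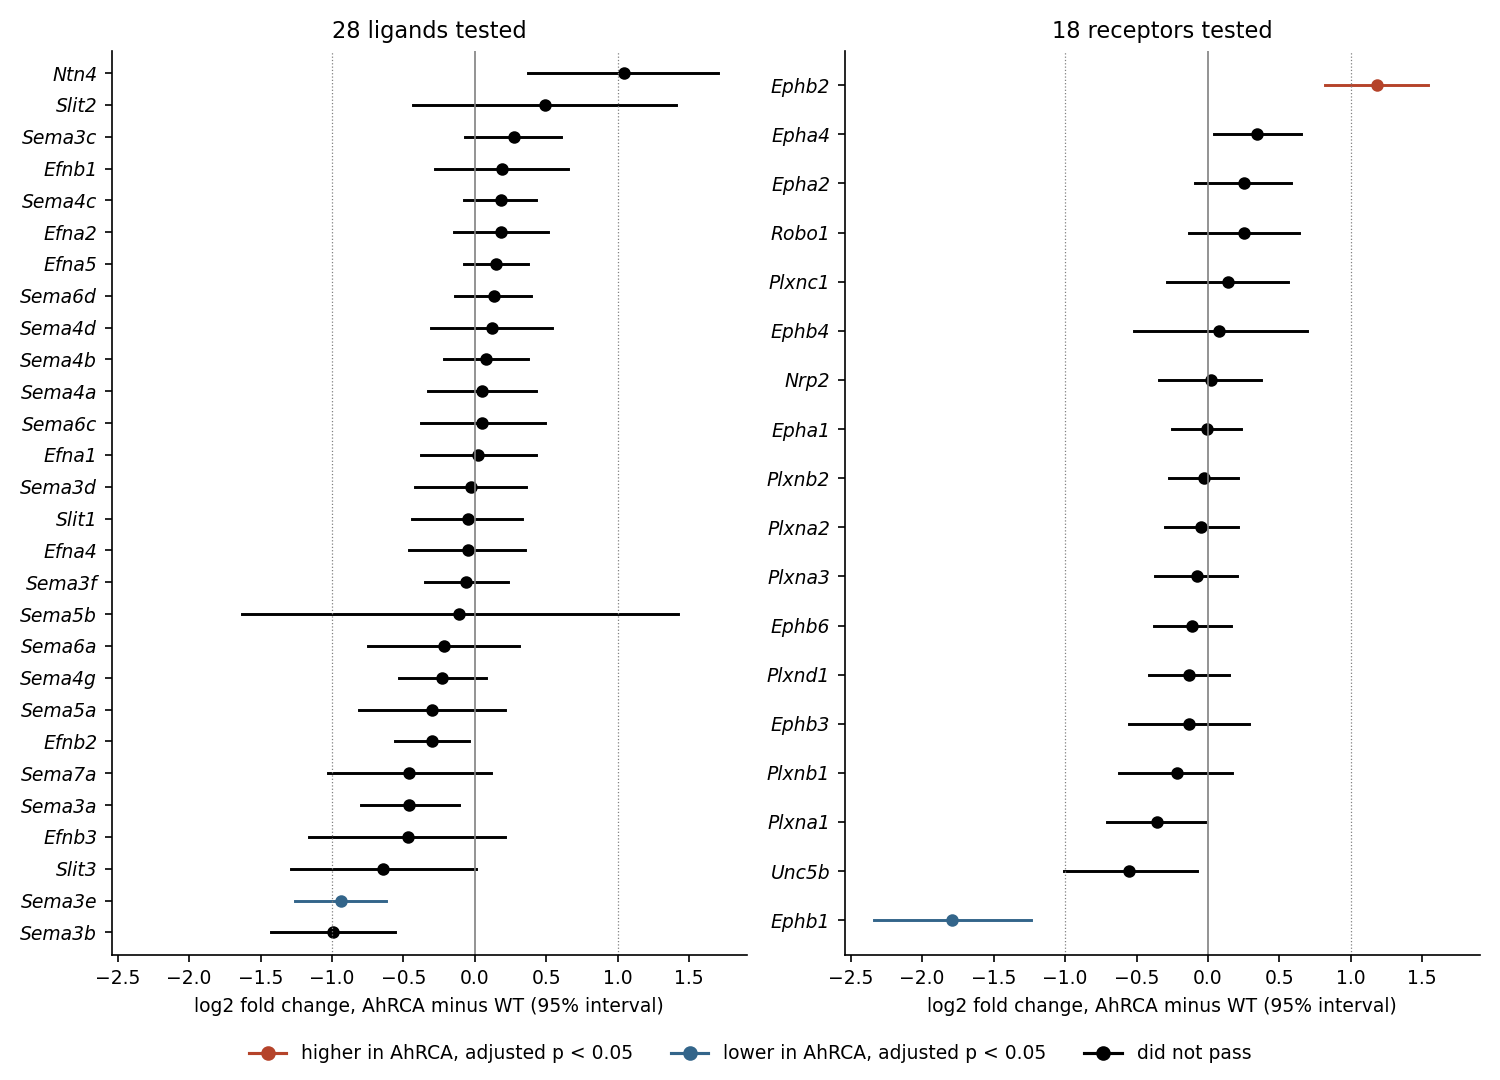
Log2 fold change (AhRCA minus WT, horizontal axis) of the 28 ligands and 18 receptors tested, with 95% intervals from limma without a block. Dotted lines mark a change of 2-fold, and colour marks an adjusted p under 0.05. Ephb2 is the single call above 0, Ephb1 and Sema3e are the calls below it, and the intervals of 35 of the other 43 genes lie within 2-fold.

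Netrins and their receptors were mostly dim in this tissue. Ntn4, a netrin of basement membranes, stood at -4.24, -4.49 and -4.39 in AhRCA 1 to 3, against -5.52, -4.79 and -5.91 in WT 1 to 3. It was well above background on 3 of 3 AhRCA arrays and on WT 2 alone, and the groups did not overlap. The log2 fold change of 1.04 ± 0.28 (SE, 95% interval 0.37 to 1.70) missed the threshold (unadjusted p = 0.00801, adjusted p = 0.15) and ranged from 0.30 in pair 2 to 1.52 in pair 3. With normexp background correction it was 0.37 (adjusted p = 0.176). Unc5b, a repulsive netrin receptor also found in endothelium, stood at 0.04, 0.35 and 0.66 in AhRCA 1 to 3, against 0.64, 1.03 and 1.03 in WT 1 to 3. The groups overlapped, but AhRCA was the lower of each litter pair, and the log2 fold change was -0.55 ± 0.19 (SE, adjusted p = 0.3, and 0.0677 with littermates as a block). The ligand gene Ntn1 had 1 of its probes above background on 1 array, and Dcc and Unc5c were not well above background on any array; none of the 3 was tested.

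Of the Slits, Slit3 stood at -2.48, -2.53 and -3.26 in AhRCA 1 to 3, against -1.95, -1.87 and -2.53 in WT 1 to 3. In either genotype replicate 3, on slide 2, was the lowest, and the groups overlapped, while AhRCA was the lower mouse of every litter pair, with differences of -0.53, -0.66 and -0.73. The log2 fold change of -0.64 ± 0.27 (SE) had an adjusted p of 0.418 without a block, 0.0372 with the litter pair and 0.0189 with the slide as a block, and 0.079 on slide 1. Slit2, measured on 3 AhRCA arrays and 2 WT arrays, had 0.49 ± 0.38 (95% interval -0.43 to 1.41) and its receptor Robo1 0.25 ± 0.16 (-0.13 to 0.64, adjusted p = 0.73). Slit1 had -0.05 ± 0.16, and Robo2 was not well above background on any array.

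**Figure D3:**
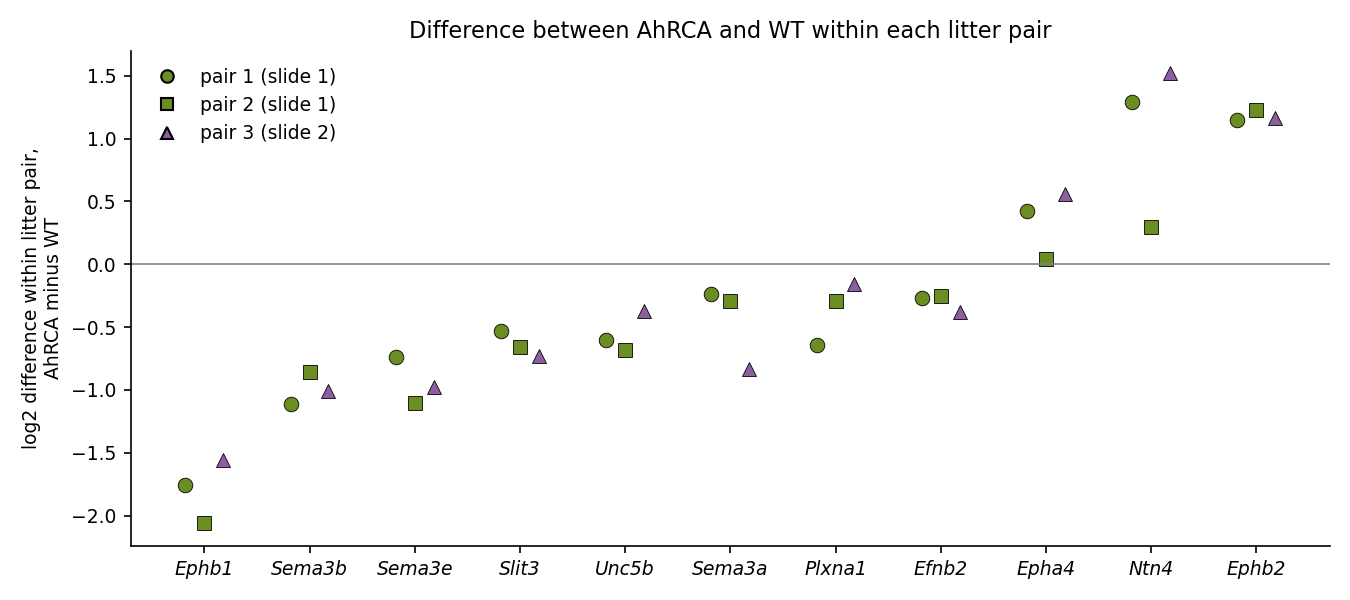
Log2 difference between the AhRCA and the WT mouse of each litter pair (vertical axis) for the 10 genes with an unadjusted p under 0.05 and for Slit3; circles and squares are pairs 1 and 2 on slide 1 and triangles pair 3 on slide 2. All 3 pairs lie on the same side of 0 for each of the 11 genes, with 1.15 to 1.23 for Ephb2 and 0.30 to 1.52 for Ntn4. The genes were chosen by results from these same arrays. That choice favours pairs of the same sign, so the shared signs are no separate support.

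The ligands and the receptors, each taken as a group, had medians close to that of all tested genes. Of 28 tested ligands 1 fell and 0 rose, with a median log2 fold change of -0.04 and 13 positive and 15 negative values; of 18 tested receptors 1 rose and 1 fell, with a median of -0.04 and 7 positive and 11 negative values. The median over all tested genes was 0.00. Within litter pairs the ligand median was -0.10, 0.08 and -0.15 and the receptor median 0.00, -0.06 and 0.01, so that neither kept a sign. The median size of the change, whatever its sign, was 0.18 for ligands, 0.13 for receptors and 0.12 for all tested genes. At an unadjusted p under 0.05 stood 10 of 46 guidance genes (21.7%, against 12.2% of all tested genes), 3 higher and 7 lower (4.62% and 7.57% of all tested genes), and the groups did not overlap in 10 (21.7%, against 16.4%), 5 higher and 5 lower (7.52% and 8.84%). Of the 43 genes that did not pass, 35 had a 95% interval within a 2-fold change; the wider ones were Sema3b, Sema5b, Sema7a, Efnb3, Ntn4, Slit2, Slit3 and Unc5b. These intervals are from the fit without a block. The widest was that of Sema5b (-1.63 to 1.42), which stood at -2.41 and -2.53 on slide 1 and -0.88 on slide 2 in AhRCA, against -2.58, -2.29 and -0.61 in WT. Within the litter pairs Sema5b differed by only 0.18, -0.24 and -0.27.

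**Figure D4:**
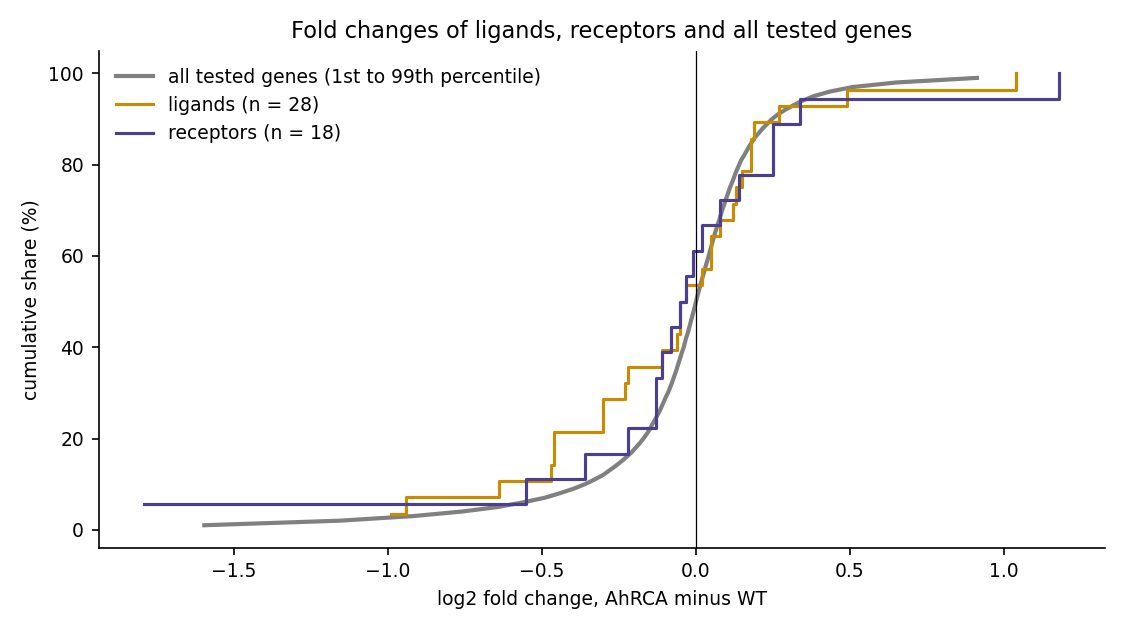
Cumulative share (vertical axis, %) of the log2 fold changes (AhRCA minus WT) of the 28 ligands and 18 receptors tested, with all tested genes in grey. The 3 curves cross near 0, and the ends of the receptor curve are Ephb1 (-1.79) and Ephb2 (1.18).

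The effect of the genotype was compared between slides in a fit with an interaction term. Of the 46 genes 0 passed for a difference between slide 2 and slide 1 after adjustment and 3 stood at an unadjusted p under 0.05 (limma), against 0.0078% and 9.98% of all tested genes. For Ephb2, Ephb1, Sema3e and Sema3b the difference between slides was -0.03, 0.35, -0.06 and -0.03 on the log2 scale. Of the 13 genes not tested, Sema3g and Efna3 had no matched probe, 7 (Sema6b, Plxnb3, Epha3, Epha5, Robo2, Unc5c and Dcc) were not well above background on any array, and 4 (Sema4f, Nrp1, Epha7 and Ntn1) were so on 1 or 2. Among 18 tested genes with more than 1 usable probe, those of Plxnb2 differed in sign (-0.03 and 0.05). The Efna5 probes had differences of 0.15 and 0.00, and in the remaining genes the probes shared their sign.

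Further genes were read from 2 lists. Both were chosen with earlier results of these data known, so the shares below are a description only. Of 29 other guidance ligands, receptors and adhesion molecules 17 were tested, with a median of 0.00 over the list. Of the 17, 1 fell and 0 rose (5.88%, against 2.18% of all tested genes). At an unadjusted p under 0.05 by limma stood 7 (41.2%, against 12.2% of all tested genes), 3 higher and 4 lower. The groups did not overlap in 7 (41.2%, against 16.4%). The gene that passed was Plxdc1, a transmembrane protein with a plexin-like domain, whose part in guidance was not tested. It stood at -3.90, -4.05 and -4.44 in AhRCA 1 to 3 against -2.21, -2.07 and -2.61 in WT 1 to 3. Its log2 fold change was -1.84 ± 0.20 (SE, adjusted p = 0.0108), with calls lost without AhRCA replicate 2 (0.0573) or WT replicate 2 (0.0504). With normexp background correction it was -0.90 (adjusted p = 0.0249). Ntn3, a further netrin gene, also fell when littermates were blocked (-0.82 ± 0.16, adjusted p = 0.0303 by limma, and 0.0606 without the block). That fit gave 2 calls in the list (11.8%, against 3.88% of all tested genes). With the slide as a block 3 of the 17 passed, against 4.2% of all tested genes: Plxdc1, Ntn3 (adjusted p = 0.0312 by limma) and Chl1. Chl1, a neural cell adhesion molecule, rose (0.39 ± 0.10 without the block, adjusted p = 0.0493 with it). Of 48 intracellular effectors 45 were tested, again with 1 fall, 0 rises and a median of 0.00. That is 2.22%, close to the 2.18% of all tested genes. At an unadjusted p under 0.05 by limma stood 5 (11.1%, against 12.2%). Dpysl3, a phosphoprotein of the collapsin response mediator family that acts on the cytoskeleton of growth cones, stood at -1.13, -1.37 and -1.27 in AhRCA 1 to 3, against -0.04, -0.53 and -0.27 in WT 1 to 3. The groups did not overlap, and its log2 fold change was -0.98 ± 0.15 (SE, adjusted p = 0.0322). Its call was lost without any 1 array (adjusted p up to 0.137), on slide 1 (0.132), with median scaling (0.061) and with no filter on dim probes (0.0777). With the slide as a block Srgap3, a GTPase-activating protein of the Slit and Robo pathway, fell as well (-0.80 ± 0.15 without the block, adjusted p = 0.0433 with it). That gave 2 calls among the 45 effectors, against 4.2% of all tested genes.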

How the data were processed

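Epidermal RNA of 3 AhRCA and 3 WT newborn mice was measured on 1-colour arrays. Per the file headers, the deposited intensity values were made by Agilent's Feature Extraction software, version 10.7.3.1, with local background and spatial trend taken off each array and no scaling across arrays. The authors' deposited table holds log2 values of 41267 probes, which followed the scanner values with a slope of 1.0, were centred per probe and had column medians between -0.071 and 0.0827; scale, centring and direction were all settled by this comparison, and it served as an alternative. From the scanner files, log2 processed intensity minus the array's 75th percentile was used. Control spots and outlier spots were left out, spots of a probe were averaged, and symbols came from unversioned RefSeq accessions (26690 of 41174 probes matched 1 symbol) through a GRCm38.p6 table. A probe was kept if it stood well above background on 3 or more of 6 arrays, and the brightest represented its gene (12824 genes, 12821 of them with a value on every array).

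Genotypes were compared with limma 3.58.1 in R 4.3.3 (lmFit, eBayes, 2 group means, two-sided, Benjamini-Hochberg over all genes, threshold 0.05). The fit was also run on simulated data with independent noise on each array. That simulation held no shared litter or slide effect, so it cannot show how such effects bear on the fit. The replicates are separate mice. Same-numbered mice are littermates per the study's design, and their deviations from the group means correlated at 0.337, 0.372 and 0.55 over 12821 genes (other pairs -0.416 to 0.194), so the replicate number was used as a block in an alternative fit. Members and gene lists were chosen with earlier results of these data known, so their shares beside all tested genes are a description only. Given by array were the genes that passed or had an unadjusted p under 0.05 by limma. So was the largest change of each family, except Efna2, Nrp2 and Robo1. These exceptions and the genes of 8 ligand and receptor pairs have at least a fold change where tested. The other genes are mostly given as fold changes or ranges.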

Additional observations from a re-analysis of the deposited data

How the results depend on the processing

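Over all genes, 279 passed. The count was 497 with the littermate pair as a replicate block, 539 with the slide as a block, 130 on slide 1 alone, 132 with no filter on dim probes, and between 62 and 195 when 1 array was left out. Of the guidance genes 3 passed, against 5 with the litter pair or the slide as a block, 1 on slide 1 alone and 0 to 3 when 1 array was left out: leaving out AhRCA replicate 1, AhRCA replicate 2 or WT replicate 2 gave 0 calls, WT replicate 3 gave 1, AhRCA replicate 3 gave 2 and WT replicate 1 gave 3. The calls added by either block were Sema3b and Slit3; the litter pair changed no other call among the guidance genes. Sema3b also passed with normexp background correction (adjusted p = 0.0322), with a stricter filter that asks for 6 arrays above background (0.0479) and with kept probes averaged per gene (0.0499). The receptor median lay between -0.07 and 0.00 and the ligand median between -0.07 and 0.04 when 1 array was left out. The genotype effect differed between slides in 1 of all genes, and in 0 with normexp correction (limma). Normexp correction gave smaller log2 fold changes for several genes: -0.94 for Ephb1, -0.90 for Plxdc1, 0.37 for Ntn4, -0.22 for Sema3a, -0.41 for Slit3, -0.30 for Efnb3 and 0.24 for Slit2. No direction of a named gene that passed was reversed in any setting run. Normexp was run on the median signals, a choice made after seeing the files; with the mean signals, as planned, it was not run. The cause of these changes was not tested. Levels below background limit Ntn4, Slit2, Epha7, Nrp1 and Ntn1.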

Other observations

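The number of GCGTG matches in the 300 bases around the start was set beside the fold change as a description. Plxnd1 held 5 matches and had a log2 fold change of -0.13, Efna5 held 3 with 0.15, and Ephb2, Epha2, Robo1, Sema5a and Nrp2 held 2 each, with 1.18, 0.25, 0.25, -0.30 and 0.02. Ephb1, which fell by 1.79 on the log2 scale, held 1, and Sema3e and Ntn4 held 0. The genes with a match thus included the largest rise and the largest fall among the receptors as well as genes with values near 0.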
